A study of Arabidopsis thaliana with 16 samples.

Results

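Atsdr4l-5 and Atsdr4l-4 are independent deletion alleles of AtSDR4L (AT1G27461), a co-repressor gene of Arabidopsis thaliana, and their H3K27me3 maps were compared here at 3 days after imbibition (DAI). The libraries were taken by genotype and day from the titles, which gave 2 Atsdr4l-5 and 2 Atsdr4l-4 libraries, 4 of the 16 samples of the series. Both mutants were made in the Col-0 background, and all seedlings grew on medium with 1% sucrose. The Atsdr4l-5 material was bulked from backcrossed lines free of the Cas9 transgene, whereas Atsdr4l-4 was segregated from an earlier biallelic mutant. Col-0 at 3 DAI (2 libraries) and all 3 genotypes at 1 DAI (2 libraries each) are given beside the alleles where they bear on a gene.

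H3K27me3 is a methylation of histone H3 that Polycomb Repressive Complex 2 (PRC2) places over silent genes, and it spreads over seed maturation and embryo genes as a seedling establishes. It forms broad domains that can span several genes, and B3-domain VAL proteins help to recruit PRC2 to seed genes. The study examined AtSDR4L as a partner of VAL2. The comparison of the alleles asks how far lines with lesions in the same gene share their H3K27me3 maps, and where the maps part.

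The site of the Atsdr4l-5 mutation is shown by its pair of CRISPR guides, of which each had 1 match with an adjoining NGG in the TAIR10.1 genome, on the minus strand. They are printed 5′ to 3′ with the 3 bases of the PAM in capitals.
first guide: acccattgcaccaaagcccGGG
other guide: ctccttaccttcgtaacctcTGG
The first matched chr1:9538914-9538932 and the other chr1:9538833-9538852, both in the coding sequence of AtSDR4L, with expected cut sites 81 bp apart. Peak calls cannot show such a deletion, so they do not check the genotype. AtSDR4L itself had peaks over 0% and 0.387% of its gene body in the Atsdr4l-5 libraries, 0% and 10.9% in the Atsdr4l-4 libraries, and 36.5% and 51.9% in the Col-0 libraries. It was below the limit for a marked gene in both alleles.

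The data are lists of broad peaks called in each library, with the fold enrichment of each peak over a mock immunoprecipitation, and read depth is unknown. The Atsdr4l-5 libraries held 6852 and 6924 peaks on chromosomes 1 to 5, covering 25.9 and 26.4 Mb. The Atsdr4l-4 libraries held 7068 and 6624 peaks, covering 24.9 and 28.2 Mb. The Atsdr4l-4 replicates were thus the least and the most covered of the 4 libraries, and the median peak width was 2215 bp in replicate 1 and 2720 bp in replicate 2. Neither the labels nor the methods say whether replicates came from separate plates or seed lots, so p-values measure only the spread between these libraries. The peaks lay where seedling H3K27me3 is known to lie. AG, AP3, PI, STM, WUS, FUS3, LEC2 and FLC, all PRC2 targets, had between 77.9% and 100% of their bodies in peaks in each of the 4 libraries, and ACT2, ACT7, ACT8, UBQ10, GAPC1, TUB2 and EF1A, which every cell uses, had 0%. In whole seedlings, fewer cells with the mark and less mark per cell cannot be told apart.

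A gene was called marked where at least 50% of its body lay in peaks. Of 37899 annotated genes, 7941 were marked in all 4 libraries and 28041 in none, so 94.9% had 1 state in both alleles and both replicates. Of the 9858 genes marked in at least 1 library, 80.6% were marked in all 4. Atsdr4l-5 had 8907 and 9013 marked genes, against 8666 and 8948 in Atsdr4l-4. The log2 ratio of these counts was 0.025 (exact two-sided permutation p = 0.667, n = 2 each), and that of covered length was -0.017 (exact permutation p = 1). With 2 libraries against 2, no p below 0.333 can be reached.

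The alleles agreed about as well with each other as replicates of 1 allele did. The Atsdr4l-5 replicates differed in the state of 986 genes and the Atsdr4l-4 replicates in that of 1080. Across the alleles, the 4 pairs of libraries differed at 937, 1019, 1109 and 1171 genes, a mean of 1059 against 1033 for replicates. The smallest number of all 6 pairs belonged to a pair across the alleles, replicate 1 of each. The Jaccard index (genes marked in both over genes marked in either) was 0.896 and 0.884 for the replicates and ran from 0.878 to 0.899 across the alleles, a difference in means of 0.0025 in favour of replicates (exact one-sided permutation over the 3 ways to part the libraries, p = 0.333, the smallest possible). This difference changed sign, to -0.011, without Atsdr4l-5 replicate 2. At 1 DAI, with other libraries, the alleles again lay on both sides of the replicates: 829 to 1209 genes across alleles against 1137 for Atsdr4l-5 and 869 for Atsdr4l-4 replicates.

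**Figure D1:**
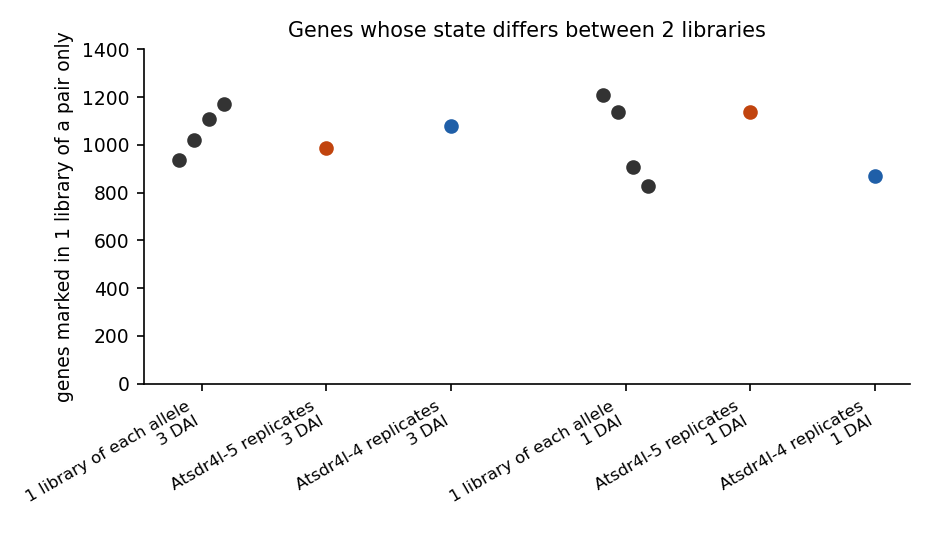
Number of genes marked in only 1 library of a pair (vertical axis), for each pair formed by 1 library of each allele (black) and for the replicates of Atsdr4l-5 (orange) and Atsdr4l-4 (blue), at 3 and 1 DAI. At 3 DAI the pairs across alleles run from 937 to 1171 genes and enclose both replicate pairs, 986 and 1080.

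The mark covered 126 genes in both Atsdr4l-5 libraries and neither Atsdr4l-4 library (0.332% of all genes), and 75 genes the other way (0.198%). Their sum of 201 was larger than for either other way to part the 4 libraries, for which the exact permutation gives p = 0.333, the smallest possible. These 201 are 10.5% of the 1917 genes whose state was not uniform, and in the rest the replicates of an allele differed. The counts rest on each library: with any 1 of the 4 left out, 255 to 382 genes were called for Atsdr4l-5 and 170 to 310 for Atsdr4l-4, since 3 libraries set a looser rule than 4.

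Most of these genes were partly covered in the other allele as well. Of the 126 marked only in Atsdr4l-5, 22 had no base in a peak in Atsdr4l-4, 28 had some in 1 library and 76 in both. Of the 75 marked only in Atsdr4l-4, 23 had no base in a peak in Atsdr4l-5, 13 had some in 1 library and 39 in both. The lower library of the marked allele exceeded the higher of the other by at least 50 percentage points in 40 and 30 genes, and by less than 10 points in 24 and 13. Near the limit, AT4G18330 was covered over 100% and 100% in Atsdr4l-5 and 49.95% and 24.3% in Atsdr4l-4. AT3G20450 was called only in Atsdr4l-4 on 48.9% and 38.5% in Atsdr4l-5 and 51.5% in both Atsdr4l-4 libraries, and was chosen as an example after its values were seen. Genes marked only in Atsdr4l-5 included 103 protein-coding genes, 11 pseudogenes and 9 long non-coding RNA genes. Those marked only in Atsdr4l-4 included 54, 4 and 13. Protein-coding genes were 81.7% and 72.0% of the lists, against 72.4% of all genes and 78.6% of genes marked in all 4 libraries. The median gene length was 1509 bp in the Atsdr4l-5 list and 742 bp in the Atsdr4l-4 list. It was 1796 bp for all genes and 1254 bp for genes marked in all 4 libraries.

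The peaks over these genes were low. Median fold enrichment over the 126 genes was 1.87 and 1.98 in the Atsdr4l-5 libraries, and over the 75 genes it was 1.97 and 1.87 in the Atsdr4l-4 libraries. Genes marked in all 4 libraries had medians of 2.54 and 2.78 in Atsdr4l-5 and 2.49 and 2.48 in Atsdr4l-4. The allele-only genes were instead close to those marked in a lone library, with medians of 1.68 and 1.86 in Atsdr4l-5 and 1.82 and 1.93 in Atsdr4l-4. These sets were formed from the same peaks, so the values are a description.

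**Figure D2:**
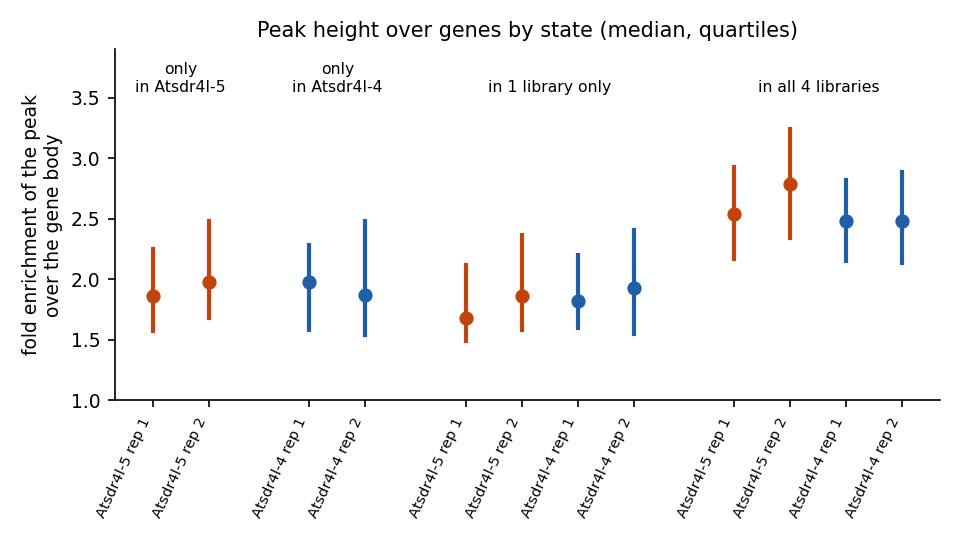
Fold enrichment over mock of the peaks on each gene body (vertical axis), as the median (dot) and quartiles (line) over genes, in each Atsdr4l-5 (orange) and Atsdr4l-4 (blue) library at 3 DAI. Medians for genes marked only in 1 allele or in 1 library lie between 1.68 and 1.98, and those for genes marked in all 4 libraries between 2.48 and 2.78.

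The protein-coding genes with the widest gap in covered bases were described one by one, 12 in each direction. Among those marked in Atsdr4l-5, SLAH1 (chr1:23007044-23008610), a homologue of the guard cell anion channel SLAC1, had no peak in the other allele. Its body was covered over 74.8% and 79.6% in Atsdr4l-5, 0% and 0% in Atsdr4l-4, and 79.7% and 3.06% in Col-0. The peaks of 7839 and 7985 bp in Atsdr4l-5 entered the gene from its 3′ end. At 1 DAI the order was the opposite, with 4.15% and 0% in Atsdr4l-5 and 91.3% and 92.7% in Atsdr4l-4. SLAH1 therefore separated the alleles on each day, but in opposite directions.

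CYP71B4 (chr3:9630128-9632145), a cytochrome P450, was covered over 100% in both Atsdr4l-5 libraries and over 42.6% and 42.3% in Atsdr4l-4. The 250 bases before its start site lay wholly in a peak in both Atsdr4l-5 libraries and held no peak base in Atsdr4l-4, or in Col-0 at 3 DAI. They are shown as the stretch of DNA over which the maps part, and capitals mark bases in peaks of both Atsdr4l-5 and neither Atsdr4l-4 library (chr3:9632146-9632395, minus strand).
CYP71B4 upstream: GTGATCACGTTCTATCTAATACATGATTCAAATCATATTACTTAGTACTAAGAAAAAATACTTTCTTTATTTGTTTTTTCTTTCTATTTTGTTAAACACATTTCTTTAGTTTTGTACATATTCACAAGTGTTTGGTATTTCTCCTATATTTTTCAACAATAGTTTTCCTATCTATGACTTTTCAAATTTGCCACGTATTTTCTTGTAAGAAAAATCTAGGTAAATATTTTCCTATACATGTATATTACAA
DRM1, a de novo DNA methyltransferase, had 53.6% and 69.9% in Atsdr4l-5, against 23.9% and 18.6% in Atsdr4l-4. Col-0 was split, at 97.2% and 26.3%. AT2G16210, a B3-domain factor gene, had 100% and 100% in Atsdr4l-5, against 46.5% and 22.5% in Atsdr4l-4, and Col-0 was again split, at 100% and 33.8%. The serine carboxypeptidase-like gene scpl14 had 99.2% and 100% in Atsdr4l-5 and 43.1% and 34.1% in Atsdr4l-4, and both Col-0 libraries were low, at 35.7% and 29.7%. AT1G66610, a TRAF-like gene, had 100% and 100% in Atsdr4l-5, against 38.8% and 0% in Atsdr4l-4 and 0% in both Col-0 libraries. The uncharacterized gene AT2G03965 was the reverse with respect to Col-0: 100% in both Atsdr4l-5 libraries, 28.3% and 0% in Atsdr4l-4 and 100% in both Col-0 libraries. The other 5 genes of this group, the receptor-like kinase gene AT5G16900, AT3G21080, AT1G04150, AT2G04190 and AT4G18330, lay between 68.3% and 100% in Atsdr4l-5 and between 0% and 49.95% in Atsdr4l-4. With only peaks of a fold enrichment of at least 2, the difference was 0 for scpl14, AT1G66610, AT5G16900, AT3G21080 and AT2G04190. At that limit it was 1.16 points for DRM1, and -24.4 points for AT1G04150.

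Among the genes marked in Atsdr4l-4, HPL1 (chr4:8835368-8838676), a hydroperoxide lyase of oxylipin synthesis, had the widest gap. It was covered over 47.0% and 47.3% in Atsdr4l-5, and over 100% in both Atsdr4l-4 and both Col-0 libraries. A domain of 10963 and 11150 bp ran through the gene in Atsdr4l-4, while in Atsdr4l-5 a peak of 4639 and 4652 bp ended inside it. Fold enrichment, averaged over each whole peak, was 2.87 and 2.81 for the shorter peaks of Atsdr4l-5, against 2.42 and 2.60 for the longer ones of Atsdr4l-4. AT4G15450 and AT4G15460 had the same 2.42 and 2.60 in Atsdr4l-4, as genes in 1 peak do. They were marked in every library of both alleles, at 2.10 and 2.06 in Atsdr4l-5. Another Atsdr4l-5 peak thus followed the 1775 bp that only Atsdr4l-4 covered. At 1 DAI the peak ended within the gene in 2 of 2 libraries of each allele, at 68.9% and 47.1% in Atsdr4l-5 and 52.4% and 47.2% in Atsdr4l-4.

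DDF1 (chr1:4289883-4291017), an AP2/ERF transcription factor gene of the CBF type, had no base in a peak in Atsdr4l-5 and was covered over 58.1% and 59.6% in Atsdr4l-4. In Col-0 it was covered over 60% and 67.9%, and in no library at 1 DAI. Its upstream DNA (chr1:4291018-4291267, minus strand) lay in the peak over all 250 bases in Atsdr4l-4, against 80 and 52 bases in Atsdr4l-5. It is shown because the domain edge of Atsdr4l-5 falls within it, and capitals mark the 170 bases in peaks of both Atsdr4l-4 and neither Atsdr4l-5 library.
DDF1 upstream: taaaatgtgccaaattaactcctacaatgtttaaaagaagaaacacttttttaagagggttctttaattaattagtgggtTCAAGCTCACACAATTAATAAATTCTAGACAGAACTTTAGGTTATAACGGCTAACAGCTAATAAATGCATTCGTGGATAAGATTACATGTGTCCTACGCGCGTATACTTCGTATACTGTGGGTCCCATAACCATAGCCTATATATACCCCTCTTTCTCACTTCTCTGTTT
TEM1, a repressor of the flowering gene FT, had 27.8% and 19.3% in Atsdr4l-5, against 80.1% and 57.6% in Atsdr4l-4 and 0% in both Col-0 libraries. The fold enrichment of these peaks was 1.70 and 1.71 in Atsdr4l-5, and 2.02 and 1.41 in Atsdr4l-4. With only peaks of a fold enrichment of at least 2, only that of Atsdr4l-4 replicate 1 remained. At 1 DAI TEM1 was covered alike, over 81.8% to 90.2% in all 6 libraries. LBD38, a nitrate-responsive LOB-domain factor, had 44.3% and 32.6% in Atsdr4l-5, 76.0% and 89.5% in Atsdr4l-4, and 0% in Col-0 at 3 DAI, but 95.1% to 100% in all 6 libraries at 1 DAI. AT1G21010 followed the same order, at 17.0% and 11.5% in Atsdr4l-5, 100% in both Atsdr4l-4 libraries, and 3.28% and 0% in Col-0. All 3 genes were marked in every library at 1 DAI, AT1G21010 over 64.9% to 100%.

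AGP4, an arabinogalactan protein gene, was covered over 0% and 0% in Atsdr4l-5, 74.8% and 62.2% in Atsdr4l-4, and in no other library. AT5G10435 lies within AGP4 on the opposite strand, and its 100% and 86.3% in Atsdr4l-4 come from the same peaks, so these count as 1 locus. MRH6, a root hair gene, had 35.2% and 39.0% in Atsdr4l-5 and 100% in both Atsdr4l-4 and both Col-0 libraries. BXL1, a beta-xylosidase of cell walls and seed coat mucilage, had 30.1% and 28.6% in Atsdr4l-5, 55.1% and 55.5% in Atsdr4l-4 and 54.5% and 71.3% in Col-0. The uncharacterized gene AT4G32080 had no peak base in Atsdr4l-5, and 63.1% and 62.8% in Atsdr4l-4. AT1G04280 and AT5G16030 lay between 27.8% and 45.2% in Atsdr4l-5 and between 58.8% and 78.0% in Atsdr4l-4.

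**Figure D3:**
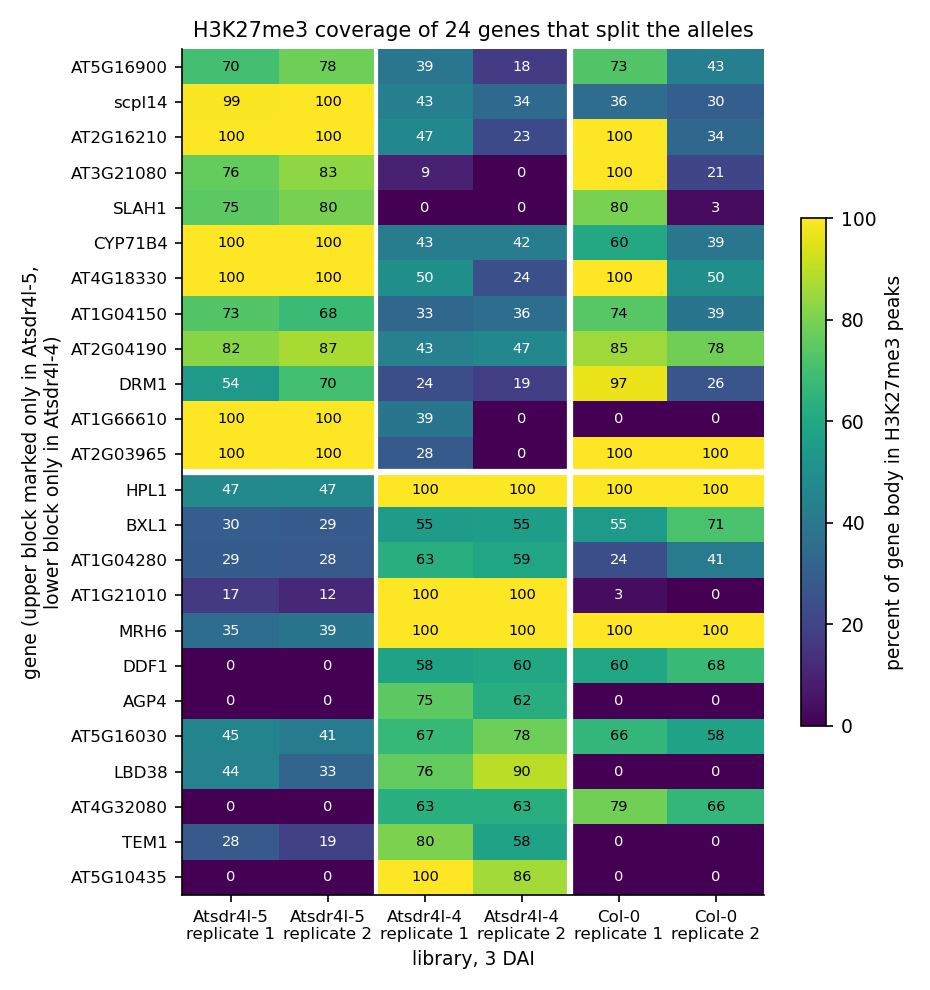
Percent of the gene body in H3K27me3 peaks (colour and printed value) for the 12 genes per direction with the widest gap in covered bases (down the page) in the Atsdr4l-5, Atsdr4l-4 and Col-0 libraries at 3 DAI (across). The alleles do not overlap in any of them, because the genes were chosen for that, while the Col-0 columns resemble Atsdr4l-5 in some genes, Atsdr4l-4 in others, and differ between themselves in several.

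IAA14 (SOLITARY-ROOT, chr4:8347822-8350263), an Aux/IAA repressor of auxin response that controls lateral root initiation, was the only gene marked in both Atsdr4l-5 libraries and neither Atsdr4l-4 library on both days. It lies outside the rule for the genes above and was chosen after its values were seen. At 3 DAI it was covered over 73.5% and 100% in Atsdr4l-5, 31.2% and 23.3% in Atsdr4l-4, and 100% in both Col-0 libraries. At 1 DAI it was covered over 69.2% and 98.2% in Atsdr4l-5, 2.33% and 0% in Atsdr4l-4, and 93.9% and 75.3% in Col-0. A large domain covers the upstream DNA of IAA14 in all 12 libraries, with its far edge between 8361863 and 8361988. Only its reach into the gene varied: it ended at 8348468 or beyond the 3′ end of the gene in Atsdr4l-5 at 3 DAI, and at 8349501 and 8349696 in Atsdr4l-4. Fold enrichment of the domain was 2.66 and 2.81 in Atsdr4l-5 and 2.44 and 2.95 in Atsdr4l-4 at 3 DAI, overlapping ranges. A stretch of 927 bp of IAA14 (chr4:8348574-8349500) was in peaks of every Atsdr4l-5 and Col-0 library and of no Atsdr4l-4 library, and the 200 bp at its end nearest the 3′ end of the gene are printed on the strand of the gene (chr4:8348574-8348773), with bases annotated as coding in any transcript in capitals.
IAA14 segment: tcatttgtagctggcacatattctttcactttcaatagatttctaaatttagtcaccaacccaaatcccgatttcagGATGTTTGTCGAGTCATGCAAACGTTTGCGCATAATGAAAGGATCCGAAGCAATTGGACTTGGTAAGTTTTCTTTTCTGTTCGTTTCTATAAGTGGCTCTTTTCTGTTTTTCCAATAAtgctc
The stretch of 927 bp held 1 RY element (CATGCA, on either strand), the motif that VAL B3 domains are known to bind, and it lies in the part printed. A match is a description of the sequence and does not show binding.

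**Figure D4:**
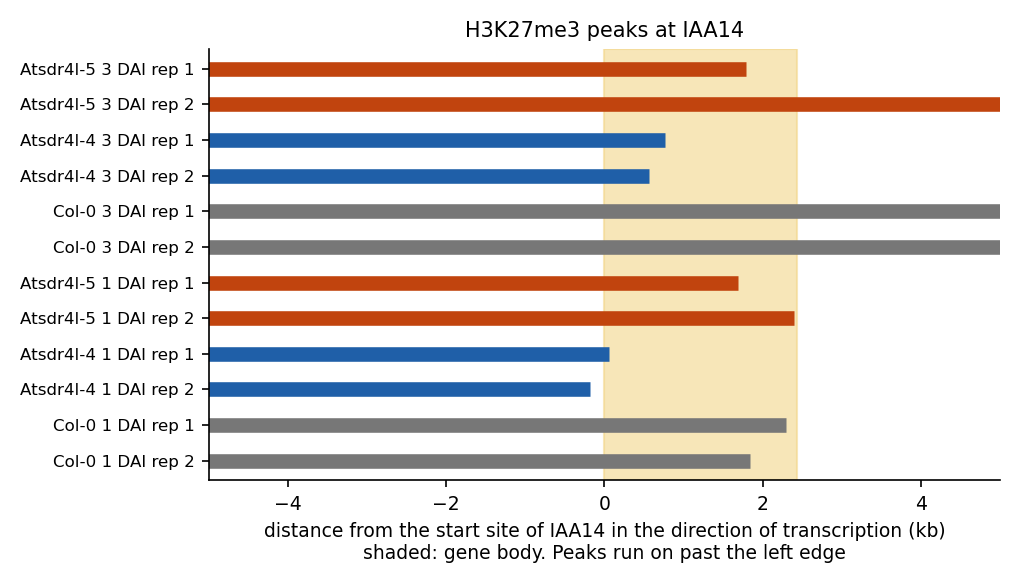
H3K27me3 peaks (bars) in the 12 libraries, Atsdr4l-5 in orange, Atsdr4l-4 in blue and Col-0 in grey, by distance from the start site of IAA14 in the direction of transcription (kb), with the gene body shaded. The peak ends in the first part of the gene or before it in all 4 Atsdr4l-4 libraries and reaches further in the other 8.

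Across all genes, the 4 Atsdr4l-5 libraries of both days all had higher coverage than the 4 Atsdr4l-4 libraries at 12 genes (0.0317%), and all had lower coverage at 50 genes (0.132%). The gap reached 10 percentage points at 1 and 6 of them. IAA14 was the 1 gene in the first group. In the second, AT1G35895 (chr1:13346878-13354225), an uncharacterized gene, had 0% and 0% in Atsdr4l-5 and 48.6% and 34.4% in Atsdr4l-4 at 3 DAI, and 0% and 7.65% in Atsdr4l-5 and 45.4% and 42.5% in Atsdr4l-4 at 1 DAI. Col-0 had 0% in all 4 libraries. Its peaks in Atsdr4l-4 were low, with fold enrichments of 1.56 to 1.73. Since it never reached 50% it does not count among the marked genes, but it holds the longest Atsdr4l-4-only stretch of all, 2585 bp (chr1:13351695-13354279), which touched no Atsdr4l-5 peak. The other 5 genes were AT1G09260, AT1G32763, AT1G33855, AT4G14819 and AT4G19360. These 7 were also chosen after their values were seen.

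The allele-only genes as a group did not keep their state on the other day. Of the 126 genes marked only in Atsdr4l-5 at 3 DAI, 15 and 23 were marked in the Atsdr4l-5 libraries at 1 DAI, against 31 and 24 in the Atsdr4l-4 libraries. Of the 75 marked only in Atsdr4l-4, 23 and 29 were marked at 1 DAI in Atsdr4l-5, against 31 and 23 in Atsdr4l-4. These were 11.9% to 24.6% of the 126 genes and 30.7% to 41.3% of the 75. All genes were marked at 18.8% and 20.3% in these Atsdr4l-5 libraries and 20.9% and 20.3% in the Atsdr4l-4 ones. The 1917 genes marked in 1 to 3 of the 4 libraries at 3 DAI, which include both lists, were marked at 18.0% and 26.2%, and 32.7% and 25.2%. At 1 DAI itself, 36 of all 37899 genes were marked only in Atsdr4l-5 and 146 only in Atsdr4l-4. IAA14 was the 1 gene shared by both days for Atsdr4l-5, 0.794% of the list at 3 DAI and 2.78% of that at 1 DAI. AT3G20450 and CRR7, a chloroplast NDH assembly gene, were the 2 shared for Atsdr4l-4, 2.67% and 1.37% of the lists. In 4 and 1 genes the direction was opposite at 1 DAI, SLAH1 among them.

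In Col-0 at 3 DAI, the genes marked only in Atsdr4l-5 were marked in 80 and 45 cases of 126, of which 34 were marked in both Col-0 libraries, 57 in 1 and 35 in neither. The genes marked only in Atsdr4l-4 were marked in 40 and 41 cases of 75, with 27 in both, 27 in 1 and 21 in neither. Col-0 thus stood on each side for a part of both lists, and its own replicates differed at 57 and 27 of the genes. All genes were marked at 23.7% to 24.5% in these Col-0 libraries.

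**Figure D5:**
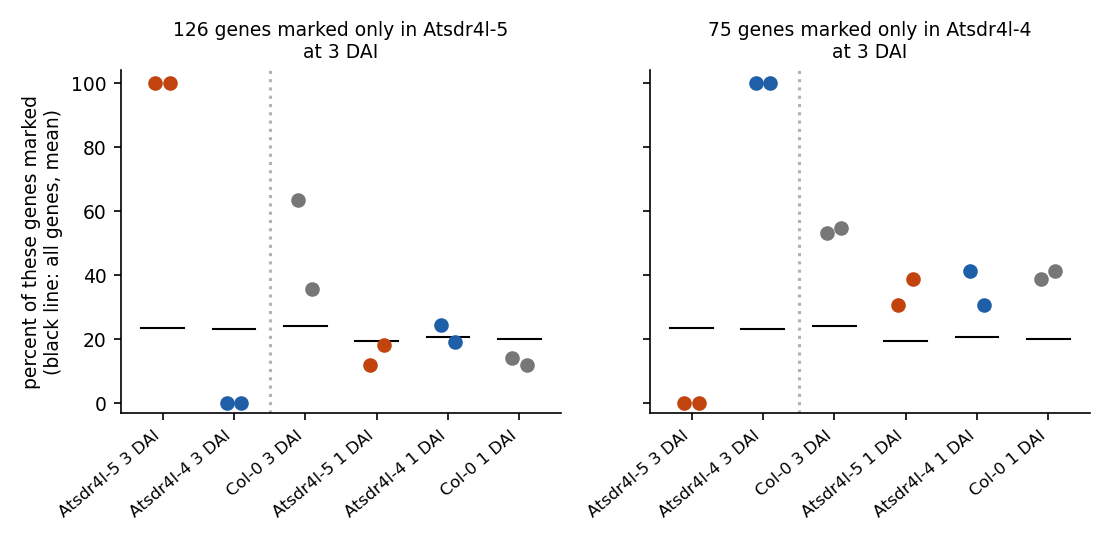
Percent of genes marked (vertical axis) in each of the 12 libraries, for the 126 genes marked only in Atsdr4l-5 (left panel) and the 75 marked only in Atsdr4l-4 (right panel) at 3 DAI, with a black line at the mean percent of all genes. The values left of the dotted line follow from how the genes were chosen, and right of it the Atsdr4l-5 and Atsdr4l-4 libraries of 1 DAI lie at 11.9% to 24.6% (left panel) and 30.7% to 41.3% (right panel).

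Most genes in lists of seed and Polycomb regulation had 1 state in both alleles, at a share near that of all genes. Of 112 genes in 14 lists, 65 were marked in all 4 libraries, 43 in none (among them the 7 genes that every cell uses) and 0 in a single allele, and the coverage of 108 differed by less than 10 points between the allele means. Without those 7, 96.2% of 105 genes had 1 state, against 94.9% of all genes. The lists were richer in marked genes: of all genes, 21.0% were marked in all 4 libraries and 74.0% in none. Among all genes marked in at least 1 library, 80.6% had 1 state. The listed genes of that kind were the 65 and 4 whose replicates differed. Whether agreement is particular to the lists was not tested. All 9 seed storage protein genes, all 11 floral organ MADS genes, all 7 KNOX and CUC genes and 10 of 11 WUS and WOX genes were marked throughout. So were 3 of 5 LAFL embryo regulators, 3 of 5 DOG1 family genes, 5 of 7 genes of the AtSDR4L, DIG and DIL family, 4 of 7 oleosin and oil body genes, 4 of 6 FT and TFL1 family genes, 5 of 8 ANT, PLT and AIL genes, 1 of 6 FLC and MAF genes, 2 of 11 PRC2 and VAL genes and 1 of 12 genes of ABA metabolism and response. All other members were marked in none, except 4 whose replicates differed.

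In each of those 4, the replicates of at least 1 allele fell on both sides of the limit. ABI4, an AP2-type factor of ABA response, was covered over 100% and 0% in Atsdr4l-5 and over 100% and 0% in Atsdr4l-4, replicate 1 being the high one in each. NCED6, an ABA synthesis gene of seeds, had 100% and 45.5% in Atsdr4l-5 and 100% in both Atsdr4l-4 libraries. CYP707A2, which breaks down ABA in germinating seeds, had 16.5% and 56.0% in Atsdr4l-5 and 16.5% and 36.5% in Atsdr4l-4. MFT, a regulator of germination, had 61.1% and 58.3% in Atsdr4l-5 and 48.8% and 62.6% in Atsdr4l-4.

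Of the 101 listed genes with 1 state in the alleles, again without the 7, 96 had it in both Col-0 libraries too. Of all 35982 genes with 1 state in the alleles, 35482 did (98.6%). The next 4 genes were chosen after their values were seen, because both alleles lay below the same Col-0 libraries, so they are examples and not a tally. ABI3, the B3-domain regulator of seed maturation, was covered over 25.3% and 30% in Atsdr4l-5 and 12.4% and 39.6% in Atsdr4l-4, and over 97.7% and 99.6% in Col-0. NCED5 had 32.3% and 34.1% in Atsdr4l-5 and 29.6% and 30.0% in Atsdr4l-4, and 100% in both Col-0 libraries. DOGL4, a relative of the dormancy gene DOG1, had 29.2% and 25.6% in Atsdr4l-5 and 19.9% and 26.3% in Atsdr4l-4, and 86.8% and 85.9% in Col-0. The oleosin gene OLEO3 had 0% and 35.2% in Atsdr4l-5 and 0% and 31.8% in Atsdr4l-4, and 90.5% and 80.7% in Col-0. The ranges of the alleles overlapped in all of these but NCED5. DIG2, a paralogue of AtSDR4L also chosen after its values were seen, had 57.2% and 55.8% in Atsdr4l-5 and 56.4% and 100% in Atsdr4l-4, so that Atsdr4l-4 replicate 2 alone reached the 100% of both Col-0 libraries.

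Among genes whose annotated product names a WRKY factor, 2 of 72 were marked only in Atsdr4l-5 (WRKY66 and WRKY74) and 1 only in Atsdr4l-4 (WRKY40). WRKY74 had 72.4% and 65.7% in Atsdr4l-5 and 0% in both Atsdr4l-4 libraries. WRKY40, a repressor in defence and ABA signalling, had 36.9% and 48.3% in Atsdr4l-5 and 80.9% and 68.6% in Atsdr4l-4. Among 653 genes whose product names an F-box, 5 were marked only in Atsdr4l-5 and 2 only in Atsdr4l-4. Over all protein-coding genes the shares were 0.375% and 0.197%. Both families were chosen after their counts were seen, and so few members do not set a family apart.

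Base by base, 258 kb were covered in both Atsdr4l-5 and neither Atsdr4l-4 library, and 289 kb the other way. These lengths fell into 1557 and 2396 stretches with medians of 63 and 44 bp, and 89.9% and 89.6% of the length adjoined a peak of the other allele. Most of the length thus lay at edges of the other allele's peaks or in gaps between them, which were not told apart. Of the stretches, 44 and 43 reached 1 kb. The longest in Atsdr4l-5 was an intergenic stretch of 2109 bp (chr4:7560959-7563067). It was followed by 1958 bp over the long non-coding RNA genes AT1G06857 and AT1G06863 (chr1:12971584-12973541), and by 1833 bp over NF-YA10, a subunit of the CCAAT-binding factor NF-Y, and AT5G06520 (chr5:1986211-1988043). In Atsdr4l-4 the stretch in AT1G35895 was followed by 1775 bp over HPL1 (chr4:8836933-8838707) and by an intergenic stretch of 1738 bp (chr1:27056557-27058294).

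Allele-only genes lay on all 5 chromosomes, at shares that differed between them. Those marked only in Atsdr4l-5 numbered 17, 28, 30, 21 and 30 on chromosomes 1 to 5. They were 0.175%, 0.444%, 0.393%, 0.359% and 0.356% of the genes of each chromosome. Those marked only in Atsdr4l-4 numbered 23, 12, 8, 11 and 21, or 0.237%, 0.190%, 0.105%, 0.188% and 0.249%. These differences were not tested. In each list 10 genes stood next to another of the list. Of these, 6 in the Atsdr4l-5 list and all 10 in the Atsdr4l-4 list overlapped another. The counts of genes are therefore not counts of separate loci. In the 500 bases upstream of protein-coding genes, an RY element (CATGCA, either strand) occurred in 13.6% of 103 genes marked only in Atsdr4l-5 and 13.0% of 54 marked only in Atsdr4l-4, against 24.2% of 6240 genes marked in all 4 libraries and 17.0% of all. A telobox (AAACCCTA, either strand), another motif linked to PRC2 recruitment, occurred in 12.6% and 1.85% of the allele-only genes, against 9.13% of those marked in all 4 and 7.51% of all. A G-box (CACGTG) occurred in 7.77% and 1.85%, against 8.00% and 9.35%, and GAGAGAGA (either strand) in 9.71% and 5.56%, against 7.72% and 8.39%. These shares count few genes, 13 at most for the telobox, and are given without a test.

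Over the 7941 genes marked in all 4 libraries, the strength of the mark was also compared. Each gene took the fold enrichment of the peaks on its body, on a log2 scale centred on the median of each library, so genes in 1 peak share a value. At an adjusted p of 0.05 in limma, 0 genes were higher in Atsdr4l-5 (0%) and 0 were lower (0%). At an unadjusted p below 0.05 there were 254 genes, 3.20% of those tested. The difference was within 0.25 log2 units for 97.3% of the genes and ran from -0.64 to 0.72. Without Atsdr4l-5 replicate 1, where the lone library is assumed to vary like those of the other allele, 2 genes were higher and 3 lower, and without centring 11 were higher and 2 lower, the medians of the alleles being 0.0995 log2 units apart. The smallest p belonged to PAD3 (CYP71B15), which makes the phytoalexin camalexin, with fold enrichments of 2.63 and 3.25 in Atsdr4l-5 and 1.72 and 1.603 in Atsdr4l-4. Its log2 difference was 0.72 ± 0.093 (SE, limma, adjusted p = 0.137). PTR3, a peptide transporter gene, had the smallest p among lower genes, at 1.91 and 2.07 in Atsdr4l-5 and 2.86 and 2.64 in Atsdr4l-4 (log2 difference -0.57 ± 0.085, limma adjusted p = 0.241). Its neighbour AT5G46060 had the same 2.86 and 2.64 in Atsdr4l-4, as genes in 1 peak do, but 4.36 and 4.22 in Atsdr4l-5 (log2 difference 0.54, limma adjusted p = 0.374). Against the same Atsdr4l-4 values, the neighbours thus differed in opposite directions. Whether this comes from how peaks were joined or split was not tested. For PAD3 and PTR3 the ranges are apart, but neither gene passed the adjustment over all genes, and all 3 were named after their values were seen. Over these genes, log2 fold enrichment correlated between Atsdr4l-5 replicates with Pearson's r of 0.905, between Atsdr4l-4 replicates with 0.859, and between alleles with 0.858 to 0.930. These are descriptions across 7941 genes that share domains and a mock control.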

How the data were processed

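Chromatin of whole seedlings was immunoprecipitated with an H3K27me3 antibody and sequenced. According to the study's methods and the submitters' processing notes, the authors trimmed reads with fastp 0.23.4, aligned them to TAIR10, filtered them with SAMtools 1.6 and called broad peaks in each library with MACS2 (2.2.6 and 2.2.7.1 are named) against joined mock IgG alignments. The deposited files give each peak's fold enrichment (a ratio to the local mock background, averaged over the peak) and its -log10 q-value, both made by the authors' peak caller. Read depth is not given in the sources used here. The mock libraries were not analysed here.

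Peaks on chromosomes 1 to 5 were laid over 37899 RefSeq gene bodies of TAIR10.1, within whose chromosome lengths all peaks fell. A gene was marked at 50% coverage or more. Counts and overlaps were computed with Python 3 libraries (numpy, pandas), and fold enrichments were compared with limma 3.58.1 in R 4.3.3, with Benjamini-Hochberg adjustment. Single values were compared by exact permutation over libraries. Named genes were protein-coding: up to 12 per direction with the largest gap in covered bases, any past the limma threshold (0), the members of 14 gene lists whose state differed between libraries, and the 3 longest stretches per direction. All other genes named were chosen after their values were seen. The groups, members and gene lists were chosen with earlier results of these data known. Alternatives were a gene limit of 1 base or of 80%, no peak base in the other allele, -log10 q of at least 5, fold enrichment of at least 2, equal peak numbers, joined peaks, protein-coding genes only, each library left out, a replicate block, and other scaling and gene filters for limma. The scripts were tested on simulated data of 7941 genes. There limma recovered 87% of genes changed by 1 log2 unit and 40% of those changed by 0.5, with 3 false calls among the unchanged genes. The simulated noise was independent between genes, whereas real genes in 1 peak share a value, so these rates need not hold for the data.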

Additional observations from a re-analysis of the deposited data

How the results depend on the processing

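The number of genes marked only in Atsdr4l-5 (126) and only in Atsdr4l-4 (75) fell to 22 and 23 where the other allele had to hold no peak base, and the Atsdr4l-4 count was 49 at a -log10 q of at least 5. The length covered only in Atsdr4l-4 (289 kb) was 192 kb at that limit and 181 kb at a fold enrichment of at least 2. With 1 library left out, the gene counts were 255 to 382 and 170 to 310, and the lengths 624 to 1360 kb for Atsdr4l-5 and 590 to 2262 kb for Atsdr4l-4, the last without Atsdr4l-4 replicate 1. The small excess of agreement within alleles (0.0025) became -0.000302 at a -log10 q of at least 5, -0.0023 at a fold enrichment of at least 2, -0.0016 where 1 base sufficed and -0.0028 at 80% coverage, and ran from -0.011 to 0.011 with 1 library left out. The log2 ratio of covered length (-0.017) became 0.021 at a -log10 q of at least 5 and 0.043 at a fold enrichment of at least 2, and ran from -0.107 to 0.072 with 1 library left out. The causes were not tested. In limma, the 0 genes higher and 0 lower became 11 and 2 without centring, and 0 to 2 and 0 to 3 with 1 library left out, where the lone library is assumed to vary like those of the other allele.

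Same-numbered libraries showed little shared deviation across genes (correlation of deviations 0.036 over 7941 genes for fold enrichment and -0.028 over 1917 genes for coverage). This does not settle whether they were handled together, which the labels and methods do not say. With the replicate block limma called 11 genes higher and 26 lower in Atsdr4l-5, PAD3, PTR3 and AT5G46060 among them. In the paired sign-flip test the log2 ratio of marked genes was 0.025 (exact p = 0.5, the smallest possible) and that of covered length -0.017 (exact p = 1).

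Of 192 alternatives over the 24 named genes, 172 moved coverage by no more than the spread between replicates, 16 by more, and 4 changed its sign. The 172 do not measure how firm the differences are. Leaving out a library moves an allele mean only to its other replicate, so it could not exceed that spread. Joining peaks left every difference unchanged. All 16 and all 4 came from the limits on -log10 q and on fold enrichment. For AT1G04150 the difference became -24.4 points at a -log10 q of at least 5 and at a fold enrichment of at least 2. At the latter limit that of BXL1 became 1.79 points and that of AT1G04280 28.4 points. The difference became 0 at both limits for AT5G16900, AT3G21080 and AT1G66610. It became 0 at the fold enrichment limit for scpl14, AT2G04190, AT1G21010 and AT4G32080, and fell to 1.16 points for DRM1. Without read depth, no counting error can be given, and a peak that just misses the caller's limit looks the same as none.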
